A study of Arabidopsis thaliana with 16 samples.

Results

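The genes described here encode the sugar-linked basic leucine zipper (bZIP) transcription factors of groups C and S1 in Arabidopsis thaliana. Membership was set by gene identifier: bZIP1 (AT5G49450), bZIP2 (AT2G18160), bZIP11 (AT4G34590), bZIP44 (AT1G75390) and bZIP53 (AT3G62420) form group S1, and bZIP9 (AT5G24800), bZIP10 (AT4G02640, listed as BZO2H1), bZIP25 (AT3G54620) and bZIP63 (AT5G28770) form group C. These are 9 of the 27655 genes counted, and all 9 were among the 17083 genes that passed a filter on low counts and could be tested. The rule names identifiers and holds no threshold on a measured value.

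A bZIP protein contacts DNA with its basic region and pairs with a second bZIP protein through its leucine zipper. Group C and group S1 proteins pair preferentially with each other, and the pairs bind sites with an ACGT core, among them the G-box CACGTG, or the related ACTCAT element, in genes for amino acid breakdown, sugar metabolism and seed storage. The network is tied to carbon supply in known ways: the SnRK1 kinase acts through group C partners such as bZIP63 when energy is low, and sucrose blocks translation of group S1 messengers through a conserved short reading frame in their 5′ leader. In seeds, bZIP53 with bZIP10 or bZIP25 is known to activate storage protein genes.

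The data are messenger RNA sequencing libraries from whole germinating seeds of wild-type ecotype Col-0, with 4 libraries that the labels call biological replicates in each of 4 groups. Seeds were chilled wet at 4 °C for 3 days, kept on diluted Murashige and Skoog medium at 22 °C in constant light, and moved into the liquid form of that medium 24 hours after imbibition. The groups were 5 µM abscisic acid (ABA, the hormone that delays germination) with 60 mM glucose, ABA at the same dose alone, glucose at the same dose alone, and a control for which the labels name no added compound. Treatment lasted 6 hours and harvest fell at 30 hours after imbibition. Whole seeds mix embryo, endosperm and seed coat, so fewer cells of a type and less RNA per cell cannot be told apart in any value below. What separates the replicates is not described further, and the p-values measure the spread between these libraries.

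Library totals were 11316409 to 14809626 counts in ABA plus glucose, 9360552 to 17794702 in ABA, 9698419 to 12793206 in glucose and 9432451 to 13532720 in control seeds. At these depths the limit that a count of 0 allows, 3 counts, lay between 0.171 and 0.325 CPM (CPM stands for counts scaled to library size, here with library sizes set by the TMM method), and covers counting error only. ABA replicate 3 stood apart: it lay at 27.2 on the second principal component of log2 CPM, which took 10.1% of the variance, against -3.4 to 5.2 for the other ABA libraries. On the third, with 7.08% of the variance, it lay at -33.3 against 7.1 to 10.9. Control replicate 1 lay at 25.3 on the second component, against 8.2 to 13.9 for the other control libraries. Results of the 9 members that rest on ABA replicate 3 are given with and without it. Of 4 markers of germinating seed, ICL (isocitrate lyase) held 22600 to 25600 CPM and MLS (malate synthase) 3100 to 3840 CPM in all libraries. The storage protein and oil body markers CRA1 and OLEO1 ranged from 102 to 1900 CPM and from 11.3 to 379 CPM. The pollen markers were near 0, with CYP703A2 at 0 in every library, PPME1 at most 0.217 CPM and AT3G28750 at most 0.634 CPM.

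The annotation divides the 9 genes by group. In the RefSeq annotation of TAIR10.1, which is the source of all positions given here since the files name no genome build, each of the 5 group S1 genes has 1 exon, and bZIP9, bZIP10, bZIP25 and bZIP63 have 6, 7, 6 and 6 exons. The group S1 proteins have 145 to 173 residues and the group C proteins 277 to 417. bZIP1 lies at chr5:20051829-20052735 on the plus strand, bZIP2 at chr2:7898012-7899242 (minus), bZIP11 at chr4:16521861-16523230 (plus), bZIP44 at chr1:28291698-28293008 (plus) and bZIP53 at chr3:23091586-23092850 (minus). Of the group C genes, bZIP9 lies at chr5:8515200-8516669 (plus), bZIP10 at chr4:1153945-1156356 (plus), bZIP25 at chr3:20217854-20220497 (minus) and bZIP63 at chr5:10796457-10798305 (minus). bZIP9 overlaps its neighbour AT5G24810 on the other strand by 35 bases, and no other member overlaps an annotated gene.

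The 5′ leaders also divide by group. The annotated leaders of bZIP1, bZIP2, bZIP11, bZIP44 and bZIP53 are 316, 439, 588, 526 and 566 bases long, and those of bZIP9, bZIP10, bZIP25 and bZIP63 are 59, 77, 156 and 158 bases long. The median over 23223 protein-coding genes with an annotated leader is 173 bases. Every group S1 leader holds an upstream reading frame, from an ATG to a stop codon within the leader, of at least 20 codons, the longest having 25 codons in bZIP1, 41 in bZIP2, 42 in bZIP11, 41 in bZIP44 and 28 in bZIP53. No group C leader holds one, the longest frames being 10 codons in bZIP25 and 7 in bZIP63. Of the 23223 protein-coding genes with an annotated leader, 23.3% have such a frame, a share not matched for leader length. Transcript counts carry no information on whether these frames were translated.

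**Figure D1:**
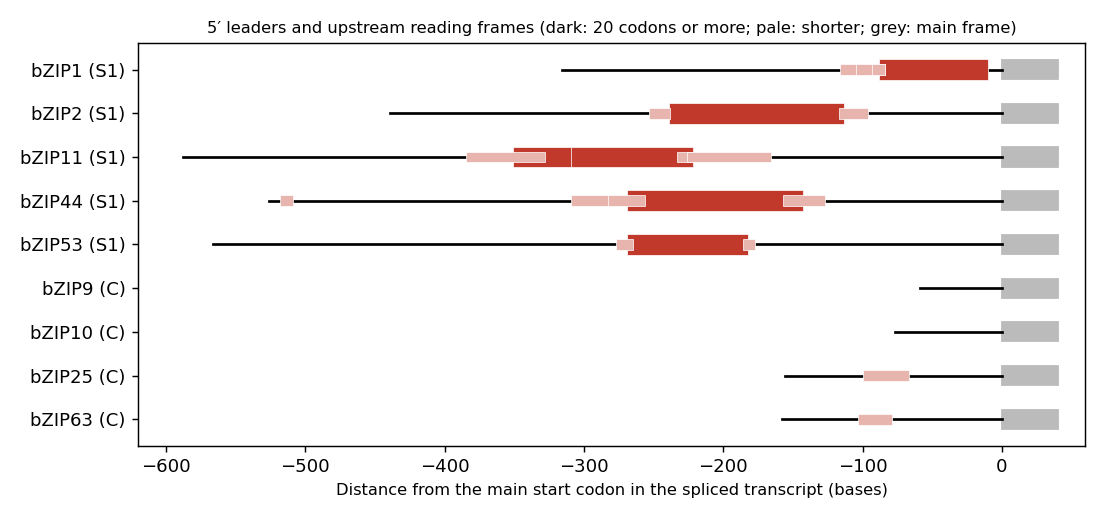
Annotated 5′ leaders of the 9 genes in the RefSeq TAIR10.1 annotation, drawn as lines against the distance in bases from the main start codon, with upstream reading frames of at least 20 codons as dark boxes, shorter frames as pale boxes and the first part of the main frame in grey. All 5 group S1 leaders carry a dark box and none of the 4 group C leaders does.

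Promoters were searched over the 250 bases upstream of each annotated transcript start for CACGTG, for ACTCAT and for ACGT, each on both strands, with every CACGTG also holding an ACGT. None of the 9 bZIP promoters holds CACGTG or ACTCAT, which occur in 6.49% and 12.3% of 27443 promoters. ACGT is found in the promoters of bZIP53, bZIP9 and bZIP10, and in 44.1% of all promoters. Among the 10 genes listed here as metabolic targets of the network, ASN1 holds CACGTG and ProDH1 and TRE1 hold ACTCAT. The 3 windows below are shown because ASN1 and ProDH1 are the classic targets with the sites in question, and bZIP63 is the member whose transcript differed most from control in all 3 treatments. The sequences are from TAIR10.1 (RefSeq), each on the minus strand and printed 5′ to 3′ along its gene, with a CACGTG or an ACTCAT in capitals. In ASN1 (chr3:17441432-17441681) the CACGTG begins 167 bases before the transcript start, in a window that also overlaps the neighbouring gene AT3G47341. In ProDH1 (chr3:12451557-12451806) the element begins 24 bases before the start and reads ATGAGT, the reverse complement of ACTCAT. The window of bZIP63 (chr5:10798306-10798555) has no capitals.
ASN1: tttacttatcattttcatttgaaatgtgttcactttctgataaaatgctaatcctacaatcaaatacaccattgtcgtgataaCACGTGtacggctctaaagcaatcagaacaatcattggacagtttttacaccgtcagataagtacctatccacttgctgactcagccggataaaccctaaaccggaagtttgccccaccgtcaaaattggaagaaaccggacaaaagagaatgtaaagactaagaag
ProDH1: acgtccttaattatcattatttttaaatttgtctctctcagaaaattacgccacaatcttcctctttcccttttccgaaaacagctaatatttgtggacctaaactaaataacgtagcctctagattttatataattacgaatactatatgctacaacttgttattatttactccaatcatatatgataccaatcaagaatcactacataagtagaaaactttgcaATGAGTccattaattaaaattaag
bZIP63: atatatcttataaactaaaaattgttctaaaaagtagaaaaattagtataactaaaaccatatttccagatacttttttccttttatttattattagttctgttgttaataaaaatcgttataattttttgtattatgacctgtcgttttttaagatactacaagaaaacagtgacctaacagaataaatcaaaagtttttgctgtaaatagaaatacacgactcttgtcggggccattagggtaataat

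Per unit of transcript length, group S1 transcripts outnumbered those of group C in every library. On the deposited TPM column, which corrects for length, the 5 group S1 genes summed to 160 ± 4.8 in ABA plus glucose, 155 ± 7.3 in ABA, 150 ± 6.0 in glucose and 209 ± 6.0 in control seeds (SD, n = 4 each). The 4 group C genes summed to 65.2 ± 4.2 in ABA plus glucose, 65.6 ± 7.4 in ABA, 69.0 ± 2.8 in glucose and 73.3 ± 2.8 in control seeds. The ratio of the group S1 sum to the group C sum was 2.46 ± 0.14 in ABA plus glucose, 2.39 ± 0.33 in ABA, 2.18 ± 0.14 in glucose and 2.85 ± 0.098 in control seeds. In ABA replicate 3 the group C sum was 76.5 and the ratio 1.90, against 59.7 to 63.5 and 2.48 to 2.61 in the other 3 ABA libraries, so without that library the ABA group C sums lay wholly below the control sums of 71.2 to 77.4. The control libraries had ratios of 2.77 to 2.99, above every treated library, whose highest ratio was 2.61. bZIP2 alone made up 44.6% of the group S1 sum in ABA plus glucose, 44.2% in ABA, 42.8% in glucose and 47.8% in control seeds.

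The order of the 9 genes by this per-length level began with bZIP2 and ended with bZIP9 in every group. In control seeds the mean levels on the TPM column were 99.9 for bZIP2, 47.9 for bZIP53, 30.2 for bZIP25, 28.5 for bZIP44, 20.8 for bZIP63, 20 for bZIP1, 17.5 for bZIP10, 12.7 for bZIP11 and 4.72 for bZIP9. Neighbours in this order whose control libraries overlapped were bZIP25 and bZIP44, bZIP63 and bZIP1, and bZIP1 and bZIP10. In the treated groups bZIP10 lay above bZIP63 without overlap, with means of 16.8 and 10.8 in ABA plus glucose, 19.6 and 10.6 in ABA, and 19 and 11.8 in glucose seeds. In glucose seeds bZIP53, bZIP25 and bZIP44 had means of 33.1, 32.1 and 28.9, with bZIP53 and bZIP25 overlapping. In ABA seeds bZIP25 (28.4) overlapped bZIP10 (19.6) through ABA replicate 3 of bZIP10, at 27.8, bZIP10 overlapped bZIP44 (18.2), and bZIP44 overlapped bZIP1 (17.0).

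**Figure D2:**
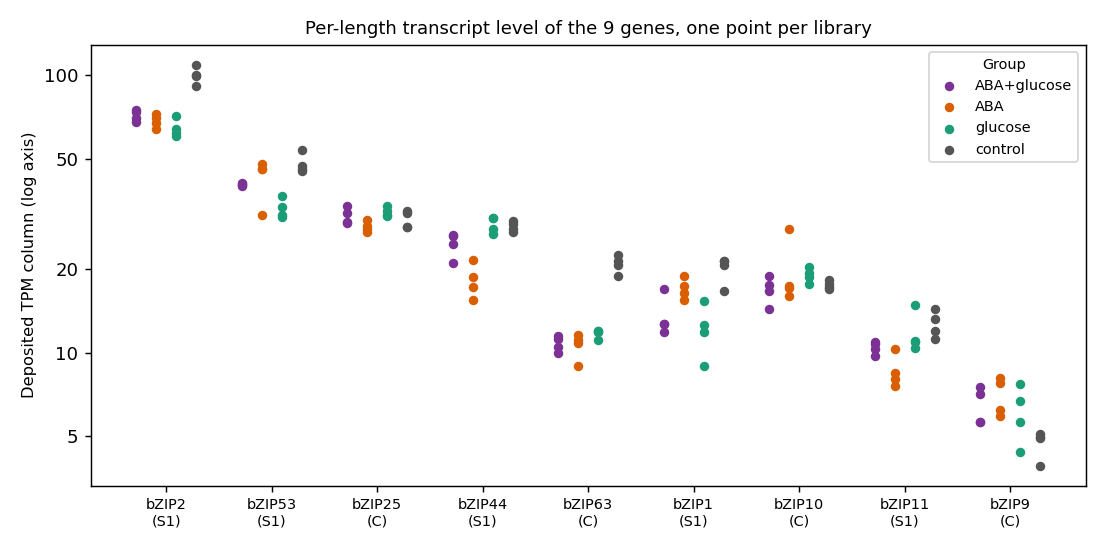
Deposited TPM value (log axis) of each of the 9 genes in each of the 16 libraries, ordered by the control mean, with the groups ABA plus glucose, ABA, glucose and control from left to right within a gene. bZIP2 is the highest and bZIP9 the lowest gene in every group, and the 4 control values of bZIP63 (18.8 to 22.4) lie above all 12 treated values.

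Read against control seeds, the members that fell under ABA were not all those that fell under glucose. With edgeR's quasi-likelihood test and Benjamini-Hochberg adjustment over all 17083 genes, bZIP2, bZIP11, bZIP44 and bZIP63 were called lower and bZIP9 higher in ABA seeds at an adjusted p under 0.05. These are 5 of 9 members, where 34.1% of all genes were called (18% lower and 16.1% higher). In glucose seeds bZIP1, bZIP2, bZIP53 and bZIP63 were called, all lower, which is 4 of 9 members against 11.3% of all genes (7.49% lower and 3.85% higher). In ABA plus glucose seeds bZIP1, bZIP2 and bZIP63 were called, all lower, which is 3 of 9 members against 25.3% of all genes (14.1% lower and 11.2% higher). The last share is near the background and the glucose share lies furthest above it. The median log2 difference of the 9 members was -0.25 with ABA plus glucose, -0.24 with ABA and -0.10 with glucose, beside medians of 0.007, 0 and -0.013 over all genes tested. The 3 comparisons share the control libraries. Of all genes tested, 15.2% had every library with both compounds below every control library, and 12.8% had every one above. These shares were 15.4% and 13.3% with ABA, and 11.4% and 8.07% with glucose. At most 0.053 separated the all-gene median from 0 under any scaling tried.

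Some markers of tissues differed from control in the treated groups, and others did not. Of 2 endosperm markers, MAN7 was called higher in all 3 treatments and EXPA2 in none, and their summed level was 1005 to 1096 CPM in ABA plus glucose, 896 to 1099 in ABA, 978 to 1028 in glucose and 877 to 1035 in control libraries. Of 2 green tissue markers, CAB1 was called lower in all 3 treatments and RBCS1A in glucose seeds, and their summed level was 1561 to 1626 CPM in ABA plus glucose, 1546 to 1855 in ABA, 1488 to 1570 in glucose and 1616 to 1860 in control libraries. The 4 germinating seed markers summed to 28554 to 29391 CPM in ABA plus glucose, 28071 to 30675 in ABA, 27242 to 28959 in glucose and 26682 to 28345 in control libraries, with CRA1 and OLEO1 called higher wherever ABA was present against control. The 3 pollen markers summed to no more than 0.634 CPM in any library. The part of tissue make-up in the bZIP values was not tested.

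**Figure D3:**
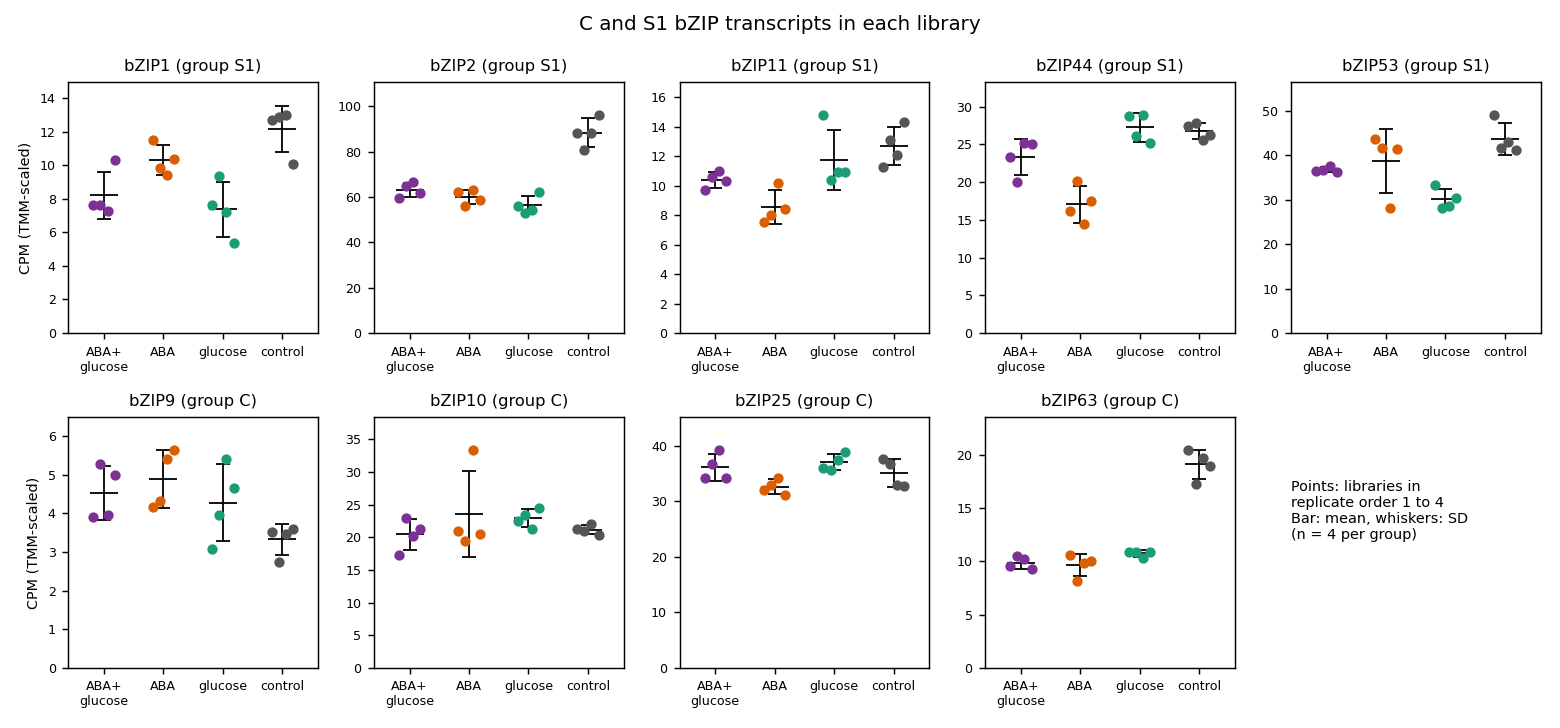
TMM-scaled CPM of each of the 9 genes in each library, with the mean as a bar and the SD as whiskers (n = 4 per group), groups ordered ABA plus glucose, ABA, glucose, control. The control points lie above all treated points for bZIP2 and bZIP63, the ABA points of bZIP44 lie below all glucose and control points, and 1 ABA library stands apart at 33.4 CPM for bZIP10.

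Of the group S1 genes, bZIP2 had the most abundant transcript and was lower in every treatment. bZIP2 had 59.5, 64.6, 66.7 and 61.8 CPM in ABA plus glucose, 62.0, 56.1, 63.1 and 58.7 CPM in ABA and 56.2, 53.0, 54.3 and 62.3 CPM in glucose seeds, against 88.4, 80.5, 88.0 and 96.1 CPM in control seeds. All 12 treated libraries lay below all 4 control libraries, while the 3 treatments overlapped each other. The log2 difference from control was -0.48 ± 0.067 (SE; adjusted p = 7.73e-06) with both compounds, -0.56 ± 0.067 (adjusted p = 7.73e-07) with ABA and -0.64 ± 0.068 (adjusted p = 1.86e-06) with glucose, by edgeR. As a change of the fitted level this was -28.4% with both compounds, -32% with ABA and -36% with glucose.

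bZIP11, the member whose sucrose-controlled translation is best known and which acts on asparagine synthesis, proline breakdown and trehalose metabolism, was lower with ABA. Its levels were 9.71, 10.6, 10.96 and 10.3 CPM in ABA plus glucose, 7.54, 8.02, 10.2 and 8.39 CPM in ABA and 14.8, 10.4, 10.9 and 10.9 CPM in glucose seeds, against 11.3, 13.1, 12.1 and 14.3 CPM in control seeds. Every ABA library lay below every control library, whereas the glucose libraries overlapped the control range. The log2 difference from control was -0.58 ± 0.119 with ABA (edgeR, adjusted p = 0.000551), and bZIP11 fell by 33.2% there. With both compounds it was -0.27 ± 0.115 (adjusted p = 0.0852), with all 4 libraries below the control range. That difference passed the threshold when only the groups compared were fitted (-0.28, adjusted p = 0.0426) and without glucose replicate 1 (-0.28, adjusted p = 0.0451). With glucose alone the log2 difference was -0.10 ± 0.115 (adjusted p = 0.634, 95% interval -0.34 to 0.14).

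bZIP44, a close relative of bZIP11 that is known to activate the mannanase gene MAN7 during germination, had its lowest levels in ABA seeds. Its levels were 23.3, 20.02, 25.2 and 25.0 CPM in ABA plus glucose, 16.2, 20.2, 14.4 and 17.5 CPM in ABA and 28.8, 26.1, 28.9 and 25.2 CPM in glucose seeds, against 27.5, 27.9, 25.6 and 26.3 CPM in control seeds. The ABA libraries lay wholly below the glucose and control libraries and overlapped the range with both compounds by a narrow margin. Against control the log2 difference was -0.65 ± 0.093 (edgeR, adjusted p = 7.84e-06) with ABA and 0.03 ± 0.089 (adjusted p = 0.891; 95% interval -0.16 to 0.21) with glucose. With both compounds it was -0.20 ± 0.089 (adjusted p = 0.114). MAN7 itself averaged 107 ± 8.2 CPM in ABA plus glucose, 116 ± 9.9 in ABA, 60.9 ± 4.0 in glucose and 39.8 ± 2.9 in control seeds (SD, n = 4 each), so it was high in the groups where bZIP44 had its lower means.

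bZIP1, a low-energy factor that acts on amino acid metabolism, was lower in both glucose groups. It had 7.66, 7.65, 7.28 and 10.3 CPM in ABA plus glucose, 11.5, 9.86, 9.42 and 10.4 CPM in ABA and 7.63, 9.36, 7.20 and 5.37 CPM in glucose seeds, against 12.7, 12.9, 13.0 and 10.1 CPM in control seeds. The glucose libraries lay below every control library, and with both compounds replicate 4 overlapped control replicate 4. The log2 difference was -0.57 ± 0.134 (edgeR, adjusted p = 0.00288) with both compounds, -0.24 ± 0.131 (adjusted p = 0.17; 95% interval -0.51 to 0.03) with ABA and -0.72 ± 0.139 (adjusted p = 0.00145) with glucose.

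bZIP53, the seed maturation factor of the group, was lower with glucose. Its levels were 36.4, 36.7, 37.6 and 36.2 CPM in ABA plus glucose, 43.7, 41.7, 28.0 and 41.3 CPM in ABA and 33.2, 28.1, 28.5 and 30.4 CPM in glucose seeds, against 49.0, 41.5, 43.0 and 41.1 CPM in control seeds. The glucose libraries lay below all control libraries, and in the ABA group replicate 3 was as low as the lowest glucose library while the other 3 overlapped control. The log2 difference from control was -0.54 ± 0.101 with glucose (edgeR, adjusted p = 0.0011). With ABA it was -0.17 ± 0.098 (adjusted p = 0.208), and -0.05 (adjusted p = 0.618) without ABA replicate 3. With both compounds it was -0.25 ± 0.099 (adjusted p = 0.0662), and it passed the threshold when ABA replicate 3 was left out of the common fit (-0.25, adjusted p = 0.00454), when only the groups compared were fitted (-0.26, adjusted p = 0.0101) and with upper-quartile scaling (-0.28, adjusted p = 0.0433).

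In group C, bZIP63 showed the largest differences from control of any member in each treatment. bZIP63, a direct substrate of SnRK1, had 9.53, 10.5, 10.2 and 9.25 CPM in ABA plus glucose, 10.6, 8.20, 9.85 and 10.04 CPM in ABA and 10.9, 10.9, 10.3 and 10.9 CPM in glucose seeds, against 20.5, 17.3, 19.7 and 19.02 CPM in control seeds. The highest treated library, at 10.9 CPM, was well below the lowest control library, and the treated groups overlapped each other. The log2 difference was -0.96 ± 0.087 (edgeR, adjusted p = 1.22e-08) with both compounds, -0.98 ± 0.088 (adjusted p = 7.06e-09) with ABA and -0.83 ± 0.087 (adjusted p = 1.84e-06) with glucose. As a change of the fitted level this was -48.4% with both compounds, -49.1% with ABA and -43.9% with glucose.

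bZIP9 had the lowest transcript level of the 9, at 33 to 74 counts a library, and was the only member called higher than control in a treatment. It had 3.92, 5.28, 3.97 and 4.99 CPM in ABA plus glucose, 4.17, 4.33, 5.41 and 5.65 CPM in ABA and 3.08, 3.97, 5.42 and 4.66 CPM in glucose seeds, against 3.51, 2.74, 3.48 and 3.59 CPM in control seeds. The libraries with ABA lay above all control libraries, and those with glucose alone overlapped control. The log2 difference was 0.54 ± 0.176 with ABA (edgeR, adjusted p = 0.0209), and was 0.47 in both cases without control replicate 2 (adjusted p = 0.066) or without ABA replicate 4 (adjusted p = 0.0644), so the call rested on these libraries. With both compounds it was 0.45 ± 0.176 (adjusted p = 0.0639) and with glucose 0.37 ± 0.181 (adjusted p = 0.204). The difference with both compounds passed the threshold when only the groups compared were fitted (0.45, adjusted p = 0.0453) and without glucose replicate 1 (0.45, adjusted p = 0.0474). AT5G24810, which overlaps bZIP9 on the other strand and cannot be told apart from it in the shared bases without stranded counts, averaged 37.2 CPM and had a log2 difference of -0.19 with ABA (adjusted p = 0.123).

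The partners of bZIP53 in storage gene activation, bZIP10 and bZIP25, were called in none of the comparisons made by edgeR. bZIP25 had 34.3, 36.8, 39.3 and 34.2 CPM in ABA plus glucose, 32.1, 33.0, 34.3 and 31.2 CPM in ABA and 36.1, 35.7, 37.5 and 38.9 CPM in glucose seeds, against 37.7, 36.7, 33.0 and 32.8 CPM in control seeds. Each treatment overlapped control, while the ABA libraries lay below all glucose libraries. The bZIP25 log2 difference from control was 0.04 with both compounds (95% interval -0.10 to 0.19), -0.11 with ABA (-0.25 to 0.04) and 0.08 with glucose (-0.06 to 0.22). bZIP10 had 17.3, 23.0, 20.2 and 21.3 CPM in ABA plus glucose, 20.9, 19.5, 33.4 and 20.5 CPM in ABA and 22.5, 23.4, 21.3 and 24.5 CPM in glucose seeds, against 21.2, 20.9, 22.1 and 20.4 CPM in control seeds. All pairs of groups overlapped, and ABA replicate 3 was far above all other libraries. The bZIP10 log2 difference with ABA was 0.14 ± 0.125 (edgeR, adjusted p = 0.434) with that library and -0.06 (adjusted p = 0.641) without it.

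**Figure D4:**
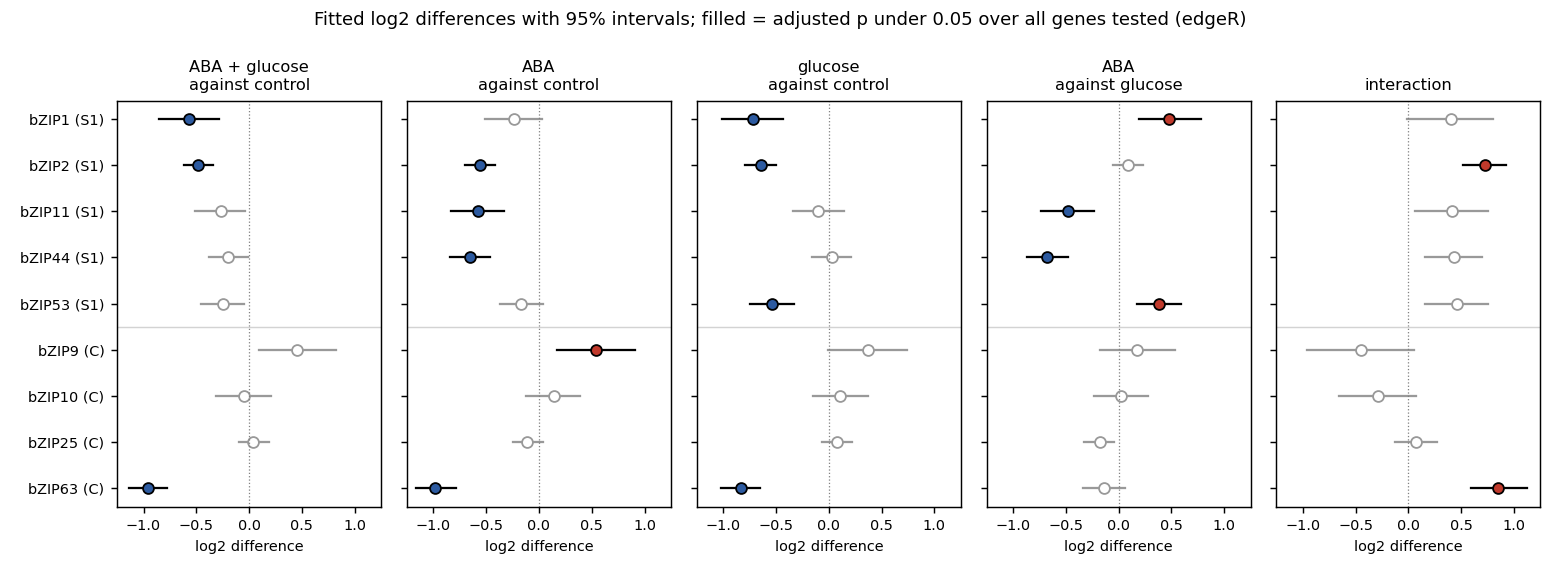
Fitted log2 differences of the 9 genes with 95% intervals for ABA plus glucose, ABA and glucose against control, ABA against glucose, and the interaction (glucose effect with ABA minus glucose effect without), with filled points at an adjusted p under 0.05. bZIP2 and bZIP63 are filled to the left of 0 in all 3 comparisons with control and to the right of 0 in the interaction, and bZIP1 and bZIP53 lie on the other side of 0 from bZIP11 and bZIP44 in ABA against glucose.

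Setting ABA seeds directly against glucose seeds tested whether the group S1 members differed between the compounds. This comparison was added after the values had been seen. By edgeR, bZIP1 (log2 difference 0.48 ± 0.142, adjusted p = 0.0144) and bZIP53 (0.38 ± 0.102, adjusted p = 0.00827) were higher in ABA than in glucose seeds, and bZIP11 (-0.48 ± 0.121, adjusted p = 0.00448) and bZIP44 (-0.68 ± 0.093, adjusted p = 6.37e-06) were lower. These are 4 of 9 members, all in group S1, where 24.5% of all genes were called (12.1% higher and 12.4% lower). The bZIP1 call was lost without glucose replicate 4 (0.37, adjusted p = 0.0599) and without ABA replicate 1 (0.42, adjusted p = 0.0592). The bZIP53 groups overlapped through ABA replicate 3, and without it the difference was 0.49. bZIP2 (0.09, 95% interval -0.05 to 0.23) and bZIP63 (-0.14, 95% interval -0.34 to 0.06) were not called. bZIP25 was not called either (-0.18, adjusted p = 0.0564), but passed the threshold without ABA replicate 3 (-0.21, adjusted p = 0.031) and with upper-quartile scaling (-0.23, adjusted p = 0.022).

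With glucose given on top of ABA, bZIP44 alone among the members was called. In ABA plus glucose against ABA seeds, bZIP44 was higher by a log2 difference of 0.45 ± 0.093 (edgeR, adjusted p = 0.00399). This is 1 of 9 members, against 4.4% of all genes (1.16% higher and 3.24% lower). The ranges overlapped, with the lowest library with both compounds at 20.02 CPM and the highest with ABA alone at 20.2 CPM. The log2 difference was 0.31 ± 0.121 for bZIP11 (adjusted p = 0.195) and -0.33 ± 0.137 for bZIP1 (adjusted p = 0.233). For bZIP53 it was -0.09 (adjusted p = 0.759), and -0.20 (adjusted p = 0.108) without ABA replicate 3. bZIP63 (0.02, 95% interval -0.18 to 0.21) and bZIP2 (0.07, 95% interval -0.07 to 0.22) had intervals close to 0.

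ABA given on top of glucose left 0 of 9 members called in ABA plus glucose against glucose seeds, where 11.8% of all genes were called by edgeR (5.82% higher and 5.95% lower). Of the members, 3 had an unadjusted p under 0.05, beside 3748 of the 17083 genes tested, and DESeq2 and limma also called 0. The nearest were bZIP53, at 0.29 ± 0.102 (adjusted p = 0.0695) with all 4 libraries with both compounds above all glucose libraries, and bZIP44, at -0.22 ± 0.090 (adjusted p = 0.126) with all 4 below. Without ABA replicate 3 in the common fit, bZIP53 was called at the same 0.29 (adjusted p = 0.00355).

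The interaction asks whether glucose acted alike with and without ABA. It was positive for bZIP63, at 0.85 ± 0.129 on the log2 scale (edgeR, adjusted p = 0.00032), and for bZIP2, at 0.72 ± 0.096 (adjusted p = 0.000121), so the lowering by glucose seen without ABA was not seen on top of ABA. These are 2 of 9 members against 5.29% of all genes (3.23% positive and 2.07% negative). For bZIP63 the glucose effect was 0.02 with ABA present and -0.83 without, and for bZIP2 it was 0.07 with ABA and -0.64 without. All 5 group S1 genes had a positive interaction, between 0.40 and 0.72, with a median of 0.43 beside 0.012 over all genes. Those of bZIP44 (0.43, adjusted p = 0.0552), bZIP53 (0.46, adjusted p = 0.0633), bZIP11 (0.41, adjusted p = 0.177) and bZIP1 (0.40, adjusted p = 0.273) did not pass the threshold. In other edgeR fits, bZIP53 passed it without ABA replicate 3 (0.34, adjusted p = 0.0312) or ABA replicate 1 (0.5, adjusted p = 0.0467). With upper-quartile scaling bZIP53 (0.49, adjusted p = 0.0482) and bZIP44 (0.46, adjusted p = 0.042) passed it. bZIP44 also passed it without ABA replicate 2 (0.51, adjusted p = 0.0218) or ABA plus glucose replicate 2 (0.48, adjusted p = 0.0321). bZIP11 passed it without glucose replicate 1 (0.52, adjusted p = 0.0488).

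Of 10 genes known as metabolic targets of the network, all but ProDH2 were tested. With ABA against control 5 of these 9 were called higher and 1 lower, where 34.1% of all genes were called (16.1% higher), and the median log2 difference was 0.48 beside 0 over all genes. With glucose against control 1 was called lower and none higher by edgeR, a share near the 11.3% of all genes called. Of these 9, 4 had an unadjusted p under 0.05, beside 4441 of the 17083 genes tested. DESeq2 and limma called 1 each. With both compounds against control 4 were higher and 2 lower by edgeR, where 25.3% of all genes were called. There DESeq2 called 4 of the 9 and limma 5. Asparagine synthetase ASN1, whose promoter is printed above, had 1.51, 1.58, 1.03 and 1.62 CPM in ABA plus glucose, 5.77, 6.18, 4.33 and 7.29 CPM in ABA and 0.343, 0.265, 0.232 and 0.405 CPM in glucose seeds, against 1.12, 1.08, 0.518 and 0.317 CPM in control seeds. The ABA libraries stood above all others, and the lowest glucose and control libraries held only 3 counts each. With edgeR, the ASN1 log2 difference was 2.91 ± 0.249 with ABA against control (adjusted p = 3.23e-09) and -2.04 ± 0.219 with both compounds against ABA (adjusted p = 2.05e-06). With both compounds against control it was 0.86 (adjusted p = 0.0458), a call lost in many of the other settings, among them without control replicate 4 (0.67, adjusted p = 0.125) and without control replicate 3 (0.69, adjusted p = 0.147).

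The other metabolic targets called higher with ABA encode enzymes of leucine and tyrosine breakdown. MCCA (methylcrotonyl-CoA carboxylase) was higher by 0.83 ± 0.109 and IVD (isovaleryl-CoA dehydrogenase) by 0.37 ± 0.070. ETFQO, which passes electrons to ubiquinone, was higher by 0.48 ± 0.096, and the tyrosine aminotransferase gene TAT7 by 0.57 ± 0.121. All are edgeR differences, and for each gene every ABA library lay above every control library. The latter held for 13.3% of all genes tested. MCCA overlaps AT1G03100 by 300 bases and had counts with decimals in all 16 libraries, so its counts are uncertain. DIN10, a raffinose synthase family gene named for its induction in darkness, moved the other way, with 574, 580, 575 and 581 CPM in ABA plus glucose, 497, 518, 517 and 505 CPM in ABA and 881, 912, 875 and 920 CPM in glucose seeds, against 1070, 1280, 1310 and 1360 CPM in control seeds. The treated groups did not overlap control or each other. The DIN10 log2 difference from control was -1.12 ± 0.062 with both compounds (edgeR, adjusted p = 2.08e-12), -1.30 ± 0.062 with ABA (adjusted p = 9.22e-14) and -0.48 ± 0.061 with glucose (adjusted p = 1.59e-05). DIN10 overlaps AT5G20260 on the other strand by 82 bases.

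When glucose was added to ABA, 4 of the 9 tested metabolic targets were called lower and none higher, where 4.4% of all genes were called (3.24% lower): ASN1, ProDH1 (-0.29, adjusted p = 0.0453), MCCA (-0.37, adjusted p = 0.0422) and IVD (-0.28, adjusted p = 0.0205), by edgeR. limma called 2 of the 9. The proline dehydrogenase gene ProDH1, the classic bZIP53 and bZIP1 target, had 75.8, 88.8, 75.9 and 77.8 CPM in ABA plus glucose, 93.9, 92.6, 116 and 89.0 CPM in ABA and 84.6, 91.2, 82.1 and 97.0 CPM in glucose seeds, against 110, 91.8, 103 and 94.2 CPM in control seeds. The libraries with both compounds lay below all ABA and all control libraries. Without ABA replicate 3, the highest of them, the difference from ABA was -0.21 (adjusted p = 0.103). The calls of MCCA and IVD in this comparison were also lost when ABA replicate 2 was left out (adjusted p = 0.125 for MCCA and 0.0705 for IVD).

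**Figure D5:**
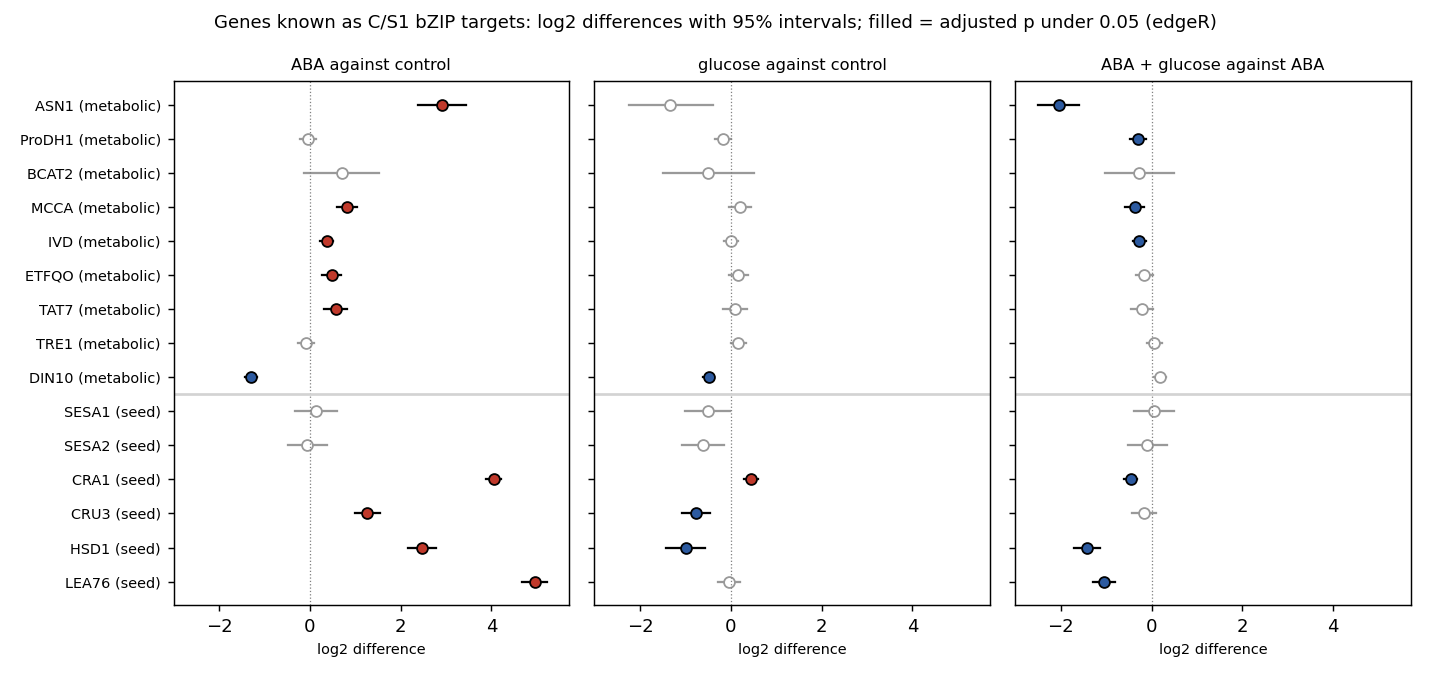
Fitted log2 differences with 95% intervals for the tested metabolic targets (above the line) and seed targets (below it) of the C and S1 network, in ABA against control, glucose against control and ABA plus glucose against ABA, with filled points at an adjusted p under 0.05. ASN1, CRA1, CRU3, HSD1 and LEA76 lie furthest right in ABA against control, and ASN1, HSD1 and LEA76 furthest left in ABA plus glucose against ABA.

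Of 6 seed maturation genes known as bZIP53 targets, 4 were called higher and none lower with ABA against control, where 34.1% of all genes were called (16.1% higher) and where bZIP53, bZIP10 and bZIP25 were not called. The median log2 difference of the 6 was 1.87 beside 0 over all genes, with SESA1 at 0.14 (adjusted p = 0.671) and SESA2 at -0.05 (adjusted p = 0.873) by edgeR. With edgeR, LEA76 (a late embryogenesis abundant protein) was higher by 4.95 ± 0.136, the cruciferin gene CRA1 by 4.06 ± 0.081, the oil body steroid dehydrogenase HSD1 by 2.48 ± 0.153 and the cruciferin gene CRU3 by 1.27 ± 0.135, with every ABA library above every control library. Of all genes tested, 13.3% had every ABA library above every control library. HSD1 has a near copy, AT5G50700, so reads of the pair may have been split between them, and CRA1 had counts with decimals in 7 libraries. With glucose against control, where 11.3% of all genes were called, 3 of the 6 were: CRA1 was 0.45 ± 0.074 higher, and CRU3 (-0.76 ± 0.145) and HSD1 (-0.99 ± 0.207) were lower. With both compounds against ABA, where 4.4% of all genes were called, 3 of the 6 were: CRA1 (-0.46 ± 0.071), HSD1 (-1.42 ± 0.138) and LEA76 (-1.05 ± 0.115) were lower. The 2S albumin genes SESA1 and SESA2, which carry a CACGTG 65 bases before their starts, were not called against control in any treatment, with SESA1 means of 5.06 CPM in ABA plus glucose, 4.93 in ABA, 3.10 in glucose and 4.30 in control seeds. The SESA2 means were 5.44 CPM in ABA plus glucose, 5.89 in ABA, 3.91 in glucose and 5.94 in control seeds.

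Of 5 genes for proteins that act with the network, ABI3 was the one called. This was 1 of 5 in ABA against control, where 34.1% of all genes were called. It was also 1 of 5 with both compounds against control (25.3% of all genes) and in ABA against glucose (24.5%). None of these shares lay above that of all genes. ABI3, the seed transcription factor that works with bZIP10 and bZIP25 on storage genes, had 302, 337, 262 and 314 CPM in ABA plus glucose, 309, 314, 474 and 324 CPM in ABA and 261, 261, 256 and 292 CPM in glucose seeds, against 182, 233, 236 and 235 CPM in control seeds. Every treated library exceeded every control library, with ABA replicate 3 the highest. With each treatment taken alone, this held for 12.8% of all genes tested with both compounds, 13.3% with ABA and 8.07% with glucose. The log2 difference from control was 0.46 ± 0.113 with both compounds (edgeR, adjusted p = 0.00441) and 0.68 ± 0.114 with ABA (adjusted p = 5.72e-05). With glucose it was 0.27 ± 0.114 (adjusted p = 0.126) and was not called. The ABA difference includes replicate 3, at 474 CPM against 309 to 324 CPM in the other ABA libraries, so its size rests partly on that library. The median ABI3 level was 319 CPM in ABA and 234 CPM in control seeds. The SnRK1 subunit genes KIN10, KIN11 and SNF4 and the glucose sensor HXK1 were called in none of the comparisons by edgeR. Their group means were 60.6 to 64.5 CPM for KIN10, 28.0 to 31.0 for KIN11, 41.6 to 47.6 for SNF4 and 46.8 to 52.9 for HXK1.

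The 12 group S genes listed outside S1 were nearly silent. bZIP4, bZIP5, bZIP8, bZIP43, bZIP48 and bZIP75 had 0 counts in all 16 libraries, which allows up to 0.325 CPM at the lowest depth. bZIP42 and bZIP70 had 1 count in 1 library each, and bZIP3, bZIP7 and bZIP58 reached at most 0.634 CPM. bZIP6, at no more than 1.05 CPM, was the one that could be tested and was not called.

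Genes with the profile nearest to each called member were found by the root mean square (RMS) difference of log2 CPM over the 16 libraries, each profile centred on its mean. The libraries share depth and treatment, so this is a description with no test. The nearest to bZIP63, whose own spread around its mean was 0.409, were XTH16 (0.116), NAI1 (0.127) and AT5G26280 (0.136). For bZIP2 (own spread 0.261) they were CIA2 (0.109), UGT76C2 (0.113) and ABI1 (0.117), and for bZIP44 (0.298) they were SBP3 (0.098), RFS1 (0.113) and AT2G44280 (0.114). Those of bZIP11 (0.258) were NPC6 (0.123), BOR1 (0.125) and AT5G67540 (0.129), and those of bZIP53 (0.241) were AT5G19120 (0.11), AT5G40670 (0.125) and NIT1 (0.127). bZIP1 (0.343) and bZIP9 (0.288) had less close neighbours, the nearest being JAL34 at 0.192 and OBE4 at 0.159. None of the other 8 members was among the 3 nearest of any member.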

How the data were processed

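RNA of whole germinating seeds was sequenced as paired-end libraries made with a KAPA mRNA HyperPrep kit, per the labels' protocols. Per the submitters' processing notes, the tools named are Trimmomatic 0.38, kallisto 0.44.0 and sleuth; how strand was used, the annotation and the genome build are not given in the sources used here. The authors deposited a table of estimated counts per gene, in which 6.44% to 8.57% of a library's values have decimals; all counts of the 9 members were whole. The authors also deposited a TPM column for each library, and since its sums run from 945626 to 1037286 it is treated as a signal of unknown scaling and used only as a level per length. The table has 16 more value columns that were left out because no label here names their samples.

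Estimated counts were rounded. The main test was edgeR 4.0.16 in R 4.3.3 (quasi-likelihood F-test, two-sided, TMM scaling, 4 group means fitted to all 16 libraries, filterByExpr with a minimum count of 10, which removed 10572 genes). P-values were adjusted by Benjamini-Hochberg over the 17083 genes tested in each comparison, with a threshold of 0.05; standard errors are the fitted difference divided by the square root of F. The biological coefficient of variation was 7.88%. Replicates correlated at r of 0.9795 to 0.9931 across genes, and the lowest chi-square per gene between a pair was 1.77. Each library counted as its own replicate, as labelled. These values cannot show how far back the replicates were kept separate. Alternatives were RLE and upper-quartile scaling, no filter, DESeq2 1.42.0, limma 3.58.1 on log2 of the deposited TPM plus 0.5, fits of only the groups compared, a replicate block, and leaving out each library. The procedures were tested on simulated counts. Leaders, reading frames and promoters were read from the RefSeq TAIR10.1 annotation, in which all 9 members were matched by gene identifier.

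The named genes are the 9 members, the genes of the lists that were called in at least 1 comparison or needed to account for a list, and the 3 nearest profiles of each called member. Members and lists were chosen with earlier results of these data known, and the comparison of ABA with glucose was added after the values had been seen. MAN7, a marker gene, was set beside bZIP44 after its values had been seen.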

Additional observations from a re-analysis of the deposited data

Results flagged for a closer look

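In a group of 4 libraries, a library was singled out when its gap to the nearest of the others as a share of the group's range exceeded Dixon's 95% critical value. This held in 8 of 48 groups examined, and chance flags about 1 in 20. ABA replicate 3 was the highest for bZIP10, at 33.4 CPM against 19.5 to 20.9 CPM, and the lowest for bZIP53, at 28.0 CPM against 41.3 to 43.7 CPM, and it also lay apart from its group over all genes. bZIP1 had 10.3 CPM in ABA plus glucose replicate 4 (others 7.28 to 7.66 CPM) and 10.1 CPM in control replicate 4 (others 12.7 to 13.0 CPM). bZIP11 had 14.8 CPM in glucose replicate 1 (others 10.4 to 10.9 CPM). bZIP9 had 2.74 CPM in control replicate 2 (others 3.48 to 3.59 CPM). bZIP63 had 10.3 CPM in glucose replicate 3 (others 10.9 CPM), a small gap in a narrow group. The ratio of the group S1 to the group C sum was 2.39 in glucose replicate 1 (others 2.08 to 2.13). The cause of these values was not tested.

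The interaction was tested for 9 members, 9 metabolic targets and 6 seed targets. By edgeR's test the effect of glucose differed with and without ABA for 6 of these genes. Of all genes, 5.29% were called (3.23% positive and 2.07% negative). The markers MAN7 (-0.72, adjusted p = 0.00026) and CAB1 (0.80, adjusted p = 0.00575) were also called. For the 6, the log2 difference was 0.72 for bZIP2 (adjusted p = 0.000121), 0.85 for bZIP63 (adjusted p = 0.00032), 0.66 for DIN10 (adjusted p = 0.0001), -0.58 for MCCA (adjusted p = 0.0303), -0.92 for CRA1 (adjusted p = 1.89e-05) and -1.01 for LEA76 (adjusted p = 0.00081).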

How the results depend on the processing

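Of 435 values of member differences called in the reported fit under other settings, 431 kept their direction and call, 4 missed the threshold (bZIP9 in ABA against control and bZIP1 in ABA against glucose, as given above) and none turned its sign. All 12 values that turned sign belong to differences that were not called. Of these, bZIP10 in ABA against glucose was -0.02 with upper-quartile scaling. The others came from leaving out a library. The ranges that follow cover every library left out in turn, so they also hold values that kept their sign. For bZIP10 they were -0.06 to 0.21 in ABA against control and -0.17 to 0.10 in ABA against glucose. With both compounds the bZIP10 ranges were -0.25 to 0.01 against ABA and -0.10 to 0.02 against control. The range was -0.01 to 0.06 for bZIP44 in glucose against control. It was -0.05 to 0.06 for bZIP63 in ABA plus glucose against ABA and -0.06 to 0.23 for bZIP9 in ABA plus glucose against glucose. In ABA plus glucose against control, 6 members were called when only the groups compared were fitted, with bZIP9, bZIP11 and bZIP53 added. Over all genes that fit called 4589, against 4328 in the reported fit. When a library was left out, 3 to 5 members were called (5 without glucose replicate 1, with bZIP9 and bZIP11 added). The calls over all genes then ran from 3536 to 5314. In ABA plus glucose against glucose, 2 members (bZIP44 and bZIP53) were called with only the groups compared. Over all genes that fit called 2817, against 2011 in the reported fit. Leaving out a library gave 0 to 1 member called (1 without control replicate 1 or without ABA replicate 3), beside 1623 to 2554 of all genes. No pairing of the samples by replicate number was seen, although these values cannot exclude a weak one. Same-numbered libraries of different groups had deviations that correlated at -0.155 to 0.113, and other-numbered ones at -0.184 to 0.235. Of 16 libraries, 4 correlated best with their own number. With the replicate block, 1 member was called in ABA plus glucose against glucose (bZIP53, 0.30, adjusted p = 0.0458), and bZIP53 was also called in the interaction (0.47, adjusted p = 0.0401). In the interaction, 4 members were called with upper-quartile scaling, where 968 of all genes were called, and 2 to 3 when a library was left out. Over all genes, leaving out a library moved the calls in glucose against control, 1937 in the reported fit, to between 1159 (without glucose replicate 3) and 2984 (without ABA replicate 3). It moved the 904 calls of the interaction to between 561 (without ABA plus glucose replicate 3) and 1433 (without ABA replicate 3). With upper-quartile scaling 34.9% of the genes called in ABA against control and 38.2% of those called in ABA against glucose were higher, against 47.2% and 49.4% with TMM scaling. The causes were not tested. A fit of only the groups compared has no counterpart for the interaction. Depth limits bZIP9 most among the members, with 33 to 74 counts a library. Among the metabolic targets it limits ProDH2, which could not be tested, BCAT2, with as few as 1 count in a library, and ASN1, with as few as 3.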
